A study of Mus musculus with 12 samples.

Results

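Sialyltransferases and chondroitin synthase were followed as 9 genes in sorted CD4 T cells of the mouse gut epithelium. They are St6gal1, St3gal1, St3gal2, St3gal4, St3gal6, St8sia4, Chsy1, Gcnt1 and Gcnt2, taken by symbol without regard to case, out of 17916 gene names on the array. The group was chosen by measured values of these arrays: St6gal1 was selected on its lower signal in CD8a+ than in ThPOK+ cells, and the other genes were set beside it. Values from that contrast are therefore given as a description with no test. The members have 18 probes on the array. Of these, 15 passed the filter on low values, which asked for detection at p under 0.05 on at least 2 of 12 arrays, and all 9 genes kept at least 1 probe.

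CD4 intraepithelial T lymphocytes of the small intestine came from B6-ThPOK-GFP reporter mice aged 10 to 12 weeks, in which green fluorescent protein reports ThPOK, the transcription factor of the CD4 helper lineage. Sorting gave 3 subsets. Below, ThPOK+ cells stands for THPOK+CD8a-, CD8a- cells for THPOK-CD8a- and CD8a+ cells for the subset THPOK-CD8a+. WT cells came from reporter mice outside any experiment, and TR cells from RAG-/- animals, which have no T or B cells of their own, given naive CD4 T cells of the reporter strain by transfer as a colitis model. Each of the 6 groups had 2 arrays, and the 3 arrays of 1 host and replicate number form a set, which gives 4 sets. The labels do not state whether replicates are separate animals. The p-values thus speak for the scatter among these arrays alone, and that scatter may be technical.

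For replicate 1, the 2 deposited tables give the hosts the other way round. Differences between the 3 arrays of a set matched between the intensity and log2 tables under 1 name for replicate 2, with a largest gap of 2.47e-06. For replicate 1 they matched only with WT and TR swapped, and sets that did not match differed by 1.10 or more at their largest gap. The intensity table's host names are used, and host differences of the members are also given after that swap. Comparisons of the subsets are made within sets and do not depend on this. In replicate 1 the median raw intensity of an array was 113.6 to 130.8 and 12024 to 13091 probes were detected. In replicate 2 the ranges were 206.7 to 246.2 and 6721 to 8195. The T cell genes Cd3e, Cd3d, Cd3g, Lck, Zap70 and Cd4 were each detected on 12 of 12 arrays. Cd8a, on which the cells were sorted as a protein, had log2 signals of 7.30 to 8.08 in ThPOK+ cells, 7.23 to 8.21 in CD8a- cells and 7.35 to 8.44 in CD8a+ cells, ranges that overlap. In sorted bulk samples such as these, fewer cells of a type and less RNA per cell cannot be told apart.

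Sialyltransferases are Golgi enzymes that place sialic acid on the ends of glycan chains, and each prefers a linkage and an acceptor. ST6GAL1 adds it in alpha-2,6 linkage to N-glycans, making the ligand of the B cell lectin CD22, while the ST3GAL enzymes add it in alpha-2,3 linkage to galactose. In T cells, ST3GAL1 caps core 1 O-glycans and competes for them with the core 2 branching enzyme encoded by Gcnt1. St8sia4 encodes a polysialic acid synthase, Gcnt2 the enzyme that branches polylactosamine chains, and Chsy1 an enzyme that builds the chondroitin chain of proteoglycans.

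St6gal1 and Chsy1 were the members furthest from 0 in opposite directions between the subsets, and the bases before their RefSeq start sites are shown for that reason. The windows are the 250 bases upstream of each start in build GRCm38.p6, written 5′ to 3′ on the gene's strand. Capitals mark matches, on either strand, to 4 short motifs that were searched: TGTGGT for RUNX factors, CTTTGA for TCF and LEF factors, GGAAGT for ETS factors and GGGCGG for the GC box. The St6gal1 windows are chr16:23224490-23224739, chr16:23225771-23226020 and chr16:23290220-23290469, and the Chsy1 window is chr7:66109242-66109491, all on the plus strand.
St6gal1 start 1: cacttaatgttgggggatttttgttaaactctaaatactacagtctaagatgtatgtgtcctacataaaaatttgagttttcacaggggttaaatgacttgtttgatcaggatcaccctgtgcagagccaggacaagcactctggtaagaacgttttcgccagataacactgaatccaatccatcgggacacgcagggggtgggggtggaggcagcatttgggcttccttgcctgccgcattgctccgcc
St6gal1 start 2: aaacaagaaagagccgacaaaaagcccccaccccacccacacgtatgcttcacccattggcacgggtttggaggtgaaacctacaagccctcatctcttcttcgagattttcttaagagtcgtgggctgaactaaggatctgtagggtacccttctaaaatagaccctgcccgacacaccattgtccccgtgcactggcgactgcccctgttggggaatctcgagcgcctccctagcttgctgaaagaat
St6gal1 start 3: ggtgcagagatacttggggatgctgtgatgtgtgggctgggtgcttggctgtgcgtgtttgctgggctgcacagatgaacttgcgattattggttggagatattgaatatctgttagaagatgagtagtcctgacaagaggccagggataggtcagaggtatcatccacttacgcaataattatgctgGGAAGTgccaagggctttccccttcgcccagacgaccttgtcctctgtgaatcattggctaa
Chsy1 start 1: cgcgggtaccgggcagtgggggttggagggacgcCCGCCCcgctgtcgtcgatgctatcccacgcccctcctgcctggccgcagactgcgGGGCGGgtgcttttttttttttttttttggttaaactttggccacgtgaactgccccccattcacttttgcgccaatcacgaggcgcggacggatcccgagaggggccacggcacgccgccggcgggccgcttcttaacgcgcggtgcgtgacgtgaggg
Of the 4 motifs, the St6gal1 windows held 1 match, the ETS motif beginning 62 bases before start 3. The Chsy1 window held 2 GC boxes, beginning 216 and 160 bases before the start, and no match to the other motifs. Among 32851 mouse windows of the same length, 14% held the RUNX motif, 13.8% the TCF and LEF motif, 19.7% the ETS motif and 32.7% a GC box. The G and C content was 47.2%, 52.8% and 49.6% in the St6gal1 windows and 65.6% in the Chsy1 window. A match describes these letters and shows no binding. Windows were at hand for 7 of the 9 genes, with 14 start sites, and not for St3gal1 and St3gal2.

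St6gal1 was high in ThPOK+ cells and near or below the detection limit in both ThPOK- subsets. In ThPOK+ cells its log2 signal was 7.63 and 8.97 on the WT arrays and 9.61 and 7.46 on the TR arrays of replicates 1 and 2, and it was detected on 4 of 4. In CD8a- cells it was 5.15, 5.12, 5.19 and 5.11 in the same order, and it was detected on 0 of 4. In CD8a+ cells it was 5.42, 6.95, 5.09 and 4.95, and it was detected on 1 of 4, the WT array of replicate 2. All 4 ThPOK+ arrays lay above all 8 arrays of the other subsets, which the plot of the 9 genes by array shows. The lone CD8a+ array with a signal lay below the lowest ThPOK+ array.

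The same order held in the raw intensities within each set. In ThPOK+ cells the St6gal1 probe read 311.3 and 585.8 on the WT arrays and 1086.8 and 376.9 on the TR arrays. In CD8a- cells it read 98.1, 201.7, 106.2 and 173.1. In CD8a+ cells it read 109.2, 316.8, 100.5 and 146.9. Raw values are comparable only within a set, because the arrays of replicate 2 had a higher median raw intensity and fewer detected probes. The probe was carried by 20 to 46 beads per array.

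**Figure D1:**
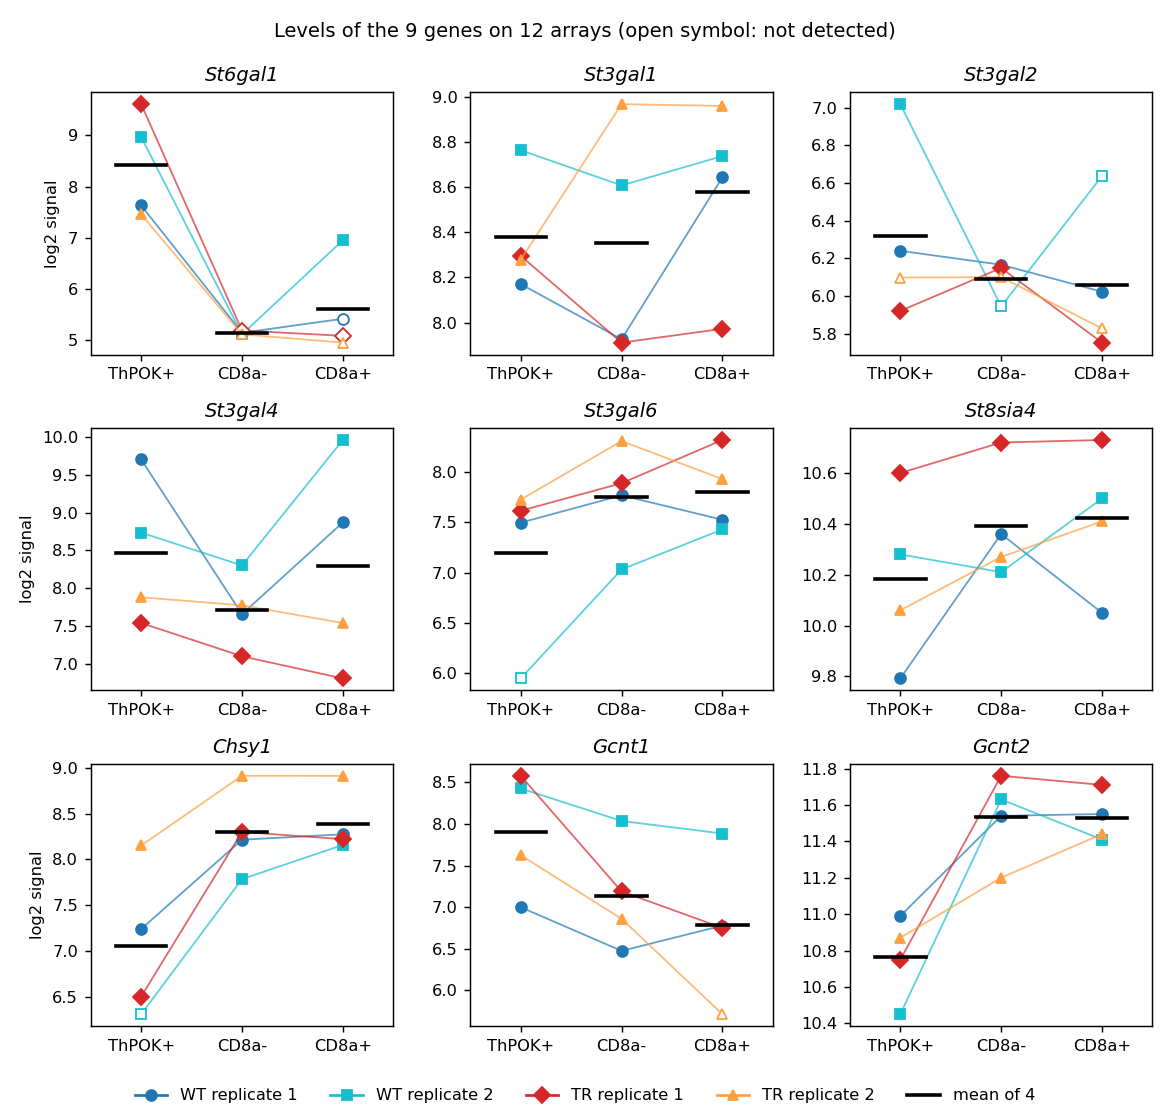
Normalized log2 signal (vertical axes, each panel with its own range) of the 9 genes in ThPOK+, CD8a- and CD8a+ cells, with lines joining the 3 arrays of 1 host and replicate, open symbols for arrays without detection and black bars for the mean of 4 arrays. St6gal1 lies at 7.46 or more on all 4 ThPOK+ arrays and at 5.42 or less on 7 of the other 8, Chsy1 and Gcnt2 run the other way, and the St3gal panels show arrays of the 3 subsets mixed.

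Mean St6gal1 log2 signals were 8.42 ± 1.04 (SD, n = 4) in ThPOK+, 5.14 ± 0.04 in CD8a- and 5.60 ± 0.92 in CD8a+ cells. CD8a+ cells were lower than ThPOK+ cells by a log2 difference of -2.81 (SE 0.44, n = 4 sets). Within the sets this difference was -2.21 and -2.02 for WT and -4.52 and -2.51 for TR. Against the lowest detected signals of the dimmer arrays, ThPOK+ cells were at least 4.70-fold higher than CD8a+ cells, 1 of whose 4 arrays measured the gene. Of all 10612 genes, 0.066% were further below ThPOK+ cells than St6gal1 in this contrast. Nothing is read from this place, since St6gal1 was selected on its low value here.

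The comparison of CD8a- with ThPOK+ cells shares the ThPOK+ arrays with the contrast just given, so it stands beside it and is not a separate test of it. The St6gal1 difference was -3.28 (SE 0.44, 95% interval -4.27 to -2.28), with sets at -2.49, -3.85, -4.42 and -2.35. Its limma adjusted p over all genes was 0.0524, just above the threshold of 0.05, so the gene was not called. The adjusted p ran from 0.00535 to 0.476 over 24 other ways of processing, and was under 0.05 in 6 of them. The gene passed the filter through the ThPOK+ arrays, where it is high, and the filter moved its adjusted p, which was 0.106 with no filter and 0.0455 with detection on 4 arrays. As a bound, ThPOK+ cells were at least 4.82-fold higher than CD8a- cells. The 2 ThPOK- subsets differed by 0.46 (SE 0.44, 95% interval -0.53 to 1.46), and limma gave an adjusted p of 0.91.

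Markers of naive and circulating T cells were highest on the same 2 arrays as St6gal1. Of the 14 genes in that list, 13 passed the filter. Their mean log2 signal was 9.16 on the TR ThPOK+ array of replicate 1 and 8.35 on the WT ThPOK+ array of replicate 2, the arrays where St6gal1 stood at 9.61 and 8.97. It was 7.04 to 9.16 over the ThPOK+ arrays, 6.68 to 7.25 over the CD8a- arrays and 6.41 to 6.87 over the CD8a+ arrays. With the list mean as a covariate, chosen after seeing the data, the St6gal1 difference was -2.001 in CD8a+ and -2.65 in CD8a- cells, with an adjusted p of 0.476 for the latter. On the other ThPOK+ arrays St6gal1 was 7.63 and 7.46 at list means of 7.04 and 7.20, and CD8a- cells of WT replicate 1 had 5.15 at a list mean of 7.25. The list's part in the difference was not tested further.

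B cells also express St6gal1. Of the 13 B and plasma cell markers 5 passed the filter, and their mean was 6.14 to 7.69 over ThPOK+, 6.28 to 6.92 over CD8a- and 6.21 to 7.43 over CD8a+ arrays. Of the list, Pax5 and Mzb1 were detected on 0 arrays, Cd22 and Blk on 1, Ms4a1 and Cd79b on 2, Jchain on 3, Sdc1 on 6 and Fcer2a on 12. The list mean was highest, at 7.69, on the WT ThPOK+ array of replicate 2, where St6gal1 stood at 8.97. It was next highest, at 7.43, on the CD8a+ array on which St6gal1 was detected. That CD8a+ array also carried the second highest signal of Paneth and goblet cell markers, at 9.43. On the TR ThPOK+ array of replicate 1, where St6gal1 was highest, the B and plasma cell mean was 6.52. The part of these cell types in the St6gal1 values was not tested.

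Of the other sialyltransferases among the members, none separated the ThPOK+ arrays from the rest, and all differed less than St6gal1. St3gal1 was detected on 12 of 12 arrays. Its log2 signals were 8.17, 8.76, 8.30 and 8.28 in ThPOK+ cells, 7.93, 8.61, 7.91 and 8.97 in CD8a- cells and 8.64, 8.74, 7.97 and 8.96 in CD8a+ cells, always as WT 1, WT 2, TR 1 and TR 2. The ranges overlapped, and CD8a+ cells were higher in 2 sets and lower in 2. The differences from ThPOK+ cells were 0.20 (SE 0.22) in CD8a+ and -0.02 (SE 0.22, 95% interval -0.51 to 0.46, adjusted p = 0.99 by limma) in CD8a- cells. A second St3gal1 probe, dimmer and detected on 10 arrays, differed by 0.50 and 0.60 in the same comparisons.

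St8sia4 was among the most even members. Its signals were 9.79, 10.28, 10.60 and 10.06 in ThPOK+, 10.36, 10.21, 10.72 and 10.27 in CD8a- and 10.05, 10.50, 10.73 and 10.41 in CD8a+ cells. The subsets overlapped, although the CD8a+ array was higher than the ThPOK+ array in 4 of 4 sets. The differences were 0.24 (SE 0.15) and 0.20 (SE 0.15, 95% interval -0.14 to 0.55, adjusted p = 0.75 by limma). Its other probes gave 0.20 and 0.18, and 0.30 and 0.27, so all 3 probes of the gene ran the same way at like size.

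St3gal6, which makes alpha-2,3 linked sialic acid on lactosamine chains, was somewhat higher in the ThPOK- subsets. It read 7.50, 5.94, 7.62 and 7.73 in ThPOK+, 7.77, 7.03, 7.89 and 8.31 in CD8a- and 7.53, 7.43, 8.32 and 7.93 in CD8a+ cells. The value of 5.94, on the WT array of replicate 2, was the only one without detection and lay far below the rest of its group. CD8a+ cells were higher by 0.61 (SE 0.24) and CD8a- cells by 0.55 (SE 0.24, 95% interval 0.01 to 1.09), the latter with a limma adjusted p of 0.56. Without that WT array of replicate 2 the differences were 0.37 and 0.32 (adjusted p = 0.767 for the latter). This runs opposite to St6gal1 and did not pass the threshold.

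St3gal2, which acts on O-glycans and gangliosides, stayed close to the detection limit and was detected on 7 of 12 arrays. Its signals were 6.24, 7.02, 5.92 and 6.10 in ThPOK+, 6.17, 5.95, 6.15 and 6.10 in CD8a- and 6.02, 6.64, 5.75 and 5.83 in CD8a+ cells. CD8a+ cells were lower in 4 of 4 sets, by a mean of -0.26 (SE 0.22), and CD8a- cells differed by -0.23 (SE 0.22, 95% interval -0.72 to 0.26, adjusted p = 0.819 by limma). From a level this near the limit, a fall of the size seen for St6gal1 could not be measured.

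St3gal4, which sialylates N-glycans and selectin ligands, varied more between sets than between subsets. It read 9.71, 8.74, 7.54 and 7.88 in ThPOK+, 7.66, 8.30, 7.10 and 7.77 in CD8a- and 8.87, 9.97, 6.80 and 7.54 in CD8a+ cells. CD8a+ cells were lower in 3 sets and higher by 1.23 in WT replicate 2, with a mean difference of -0.17 (SE 0.40). CD8a- cells were lower in 4 of 4 sets, by -0.76 (SE 0.40, 95% interval -1.67 to 0.15), and limma gave an adjusted p of 0.645. The 4 arrays with the highest St3gal4 were also the 4 with the highest Paneth and goblet cell markers, of which 11 of 16 genes passed. Their mean signal was 9.45, 7.97, 7.11 and 9.43 on the WT ThPOK+ and CD8a+ arrays and at most 6.34 on the others, as the plot of marker lists shows. With that mean as a covariate, chosen after seeing the data, the St3gal4 differences were 0.14 in CD8a+ and 0.08 in CD8a- cells.

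**Figure D2:**
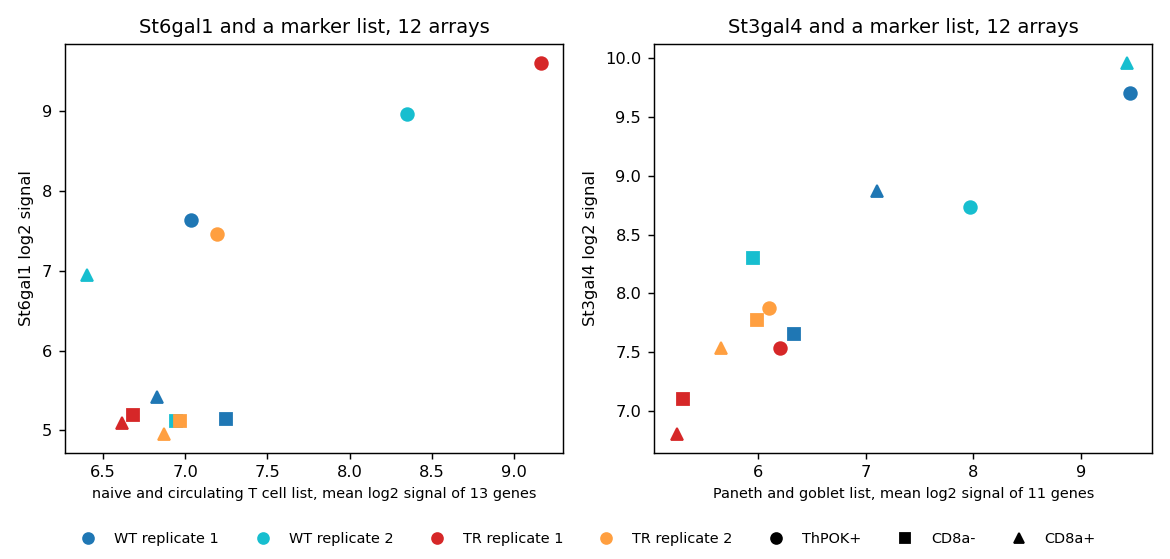
Left, St6gal1 log2 signal against the mean log2 signal of 13 naive and circulating T cell markers, and right, St3gal4 log2 signal against the mean of 11 Paneth and goblet cell markers, each point 1 of 12 arrays, colour for host and replicate and shape for subset. On the left, the ThPOK+ arrays (circles) at list means of 7.04 and 7.20 have St6gal1 at 7.63 and 7.46. The CD8a- array (square) at 7.25 has 5.15, and the list's part was not tested further. On the right, St3gal4 is highest on the 4 arrays where the Paneth and goblet list is at 7.11 or more.

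In the sialyltransferase family, St6gal1 had the most negative difference from ThPOK+ cells in both ThPOK- subsets. Of 20 family genes on the array, 14 passed the filter. St6gal2, St6galnac1, St6galnac5, St8sia2, St8sia3 and St8sia6 were detected on 0 arrays. In CD8a+ against ThPOK+ cells, 0 of the family genes outside the 9 members were called higher or lower, where 0.565% of all genes were called, 0.254% higher and 0.311% lower. For the members themselves no call is read from this contrast, which served to choose St6gal1. The median family difference was 0.17, against 0.003 for all genes, with 9 positive and 5 negative. In CD8a- against ThPOK+ cells 0 family genes were called, the median was 0.09 and 7 were positive and 7 negative.

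The other 13 family genes ranged from -0.72 for St8sia5 to 0.72 for St3gal3 in CD8a+ cells and from -0.76 for St3gal4 to 0.74 for St6galnac6 in CD8a- cells. Undetected St6gal1 in CD8a- cells had a mean of 5.14. In ThPOK+ cells St3gal2, St3gal3, St3gal5, St6galnac3, St6galnac4, St6galnac6 and St8sia1 had mean signals of only 5.86 to 6.43. Those of St8sia5 and St3gal6 were 7.10 and 7.20. From such levels a fall of the size seen for St6gal1 could not be measured. St3gal1, St3gal4, St6galnac2 and St8sia4 had ThPOK+ means of 8.38 to 10.18. Set by set, St6gal1 had the lowest difference of the 14 genes in all 4 sets of both comparisons, as description. The nearest any other gene came was St3gal4 in WT replicate 1, at -2.05 against -2.49 for St6gal1 in CD8a- cells. St3gal3, another N-glycan alpha-2,3 enzyme, was higher by 0.72 (SE 0.29) in CD8a+ and 0.70 (SE 0.29) in CD8a- cells, with limma adjusted p of 0.453 and 0.546. St6galnac2, which adds alpha-2,6 sialic acid to O-glycans, differed by 0.55 and 0.68 (adjusted p = 0.559 and 0.521), and St6galnac6 by 0.32 and 0.74 (adjusted p = 0.722 and 0.419). St8sia5, which sialylates gangliosides, differed by -0.72 and -0.43 (adjusted p = 0.462 and 0.726). None of these passed the threshold in either direction.

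**Figure D3:**
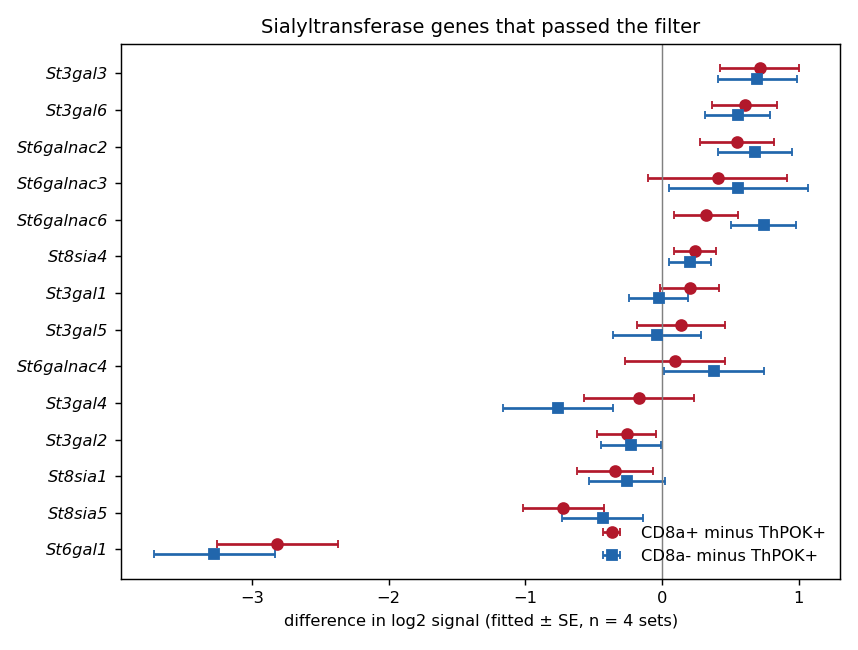
Fitted difference in log2 signal (horizontal axis) of the 14 sialyltransferase genes that passed the filter, for CD8a+ minus ThPOK+ (circles) and CD8a- minus ThPOK+ cells (squares), with SE bars over 4 sets. St6gal1 lies at -2.81 and -3.28, and the other 13 genes lie between -0.76 and 0.74. Of those 13, all but St3gal1, St3gal4, St6galnac2 and St8sia4 were too dim in ThPOK+ cells to show a fall of the St6gal1 size.

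No gene for the supply of sialic acid or for its N-glycan acceptors passed the test. Of 8 genes that make, activate, transport or break down sialic acid, 6 passed the filter and 0 were called in either comparison, with median differences of -0.06 in CD8a+ and 0.12 in CD8a- cells. Of 21 genes for N-glycan branching and galactosylation, whose products ST6GAL1 sialylates, 18 passed and 0 were called, with medians of 0.04 and -0.03. The smallest p among them was that of B4galt4, a galactosyltransferase, which was higher by 0.97 (SE 0.33) in CD8a- cells (adjusted p = 0.443 by limma).

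Chsy1 ran opposite to St6gal1. Its log2 signals were 7.24, 6.31, 6.51 and 8.15 in ThPOK+, 8.22, 7.79, 8.30 and 8.91 in CD8a- and 8.27, 8.16, 8.22 and 8.91 in CD8a+ cells. Every CD8a+ array lay above every ThPOK+ array, by a narrow margin over the TR ThPOK+ array of replicate 2, which at 8.15 stood above the other 3 and overlapped with CD8a- cells. Within each set the ThPOK+ array was the lowest of the 3. The differences from ThPOK+ cells were 1.34 (SE 0.21, higher in 4 of 4 sets) in CD8a+ and 1.25 (SE 0.21, 95% interval 0.77 to 1.73, higher in 4 of 4 sets) in CD8a- cells. For the latter limma gave an adjusted p of 0.0751, which ran from 0.0298 to 1 over 24 other ways of processing and was under 0.05 in 3. Of all genes, 0.452% were further above ThPOK+ cells than Chsy1 in CD8a+ cells. This place too is only a description, since members were chosen with earlier results of these data known. The ThPOK- subsets differed by 0.09 (95% interval -0.39 to 0.57). The value of 6.31, on the WT ThPOK+ array of replicate 2, was the only one without detection. Its set had the largest CD8a+ difference, at 1.84. The lowest Chsy1 arrays, at 6.31 and 6.51, were the 2 with the highest naive and circulating markers, at 8.35 and 9.16. With that list as a covariate, chosen after seeing the data, the Chsy1 differences were 0.84 in CD8a+ and 0.86 in CD8a- cells (adjusted p = 0.558 for the latter). The list's part was not tested further.

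**Figure D4:**
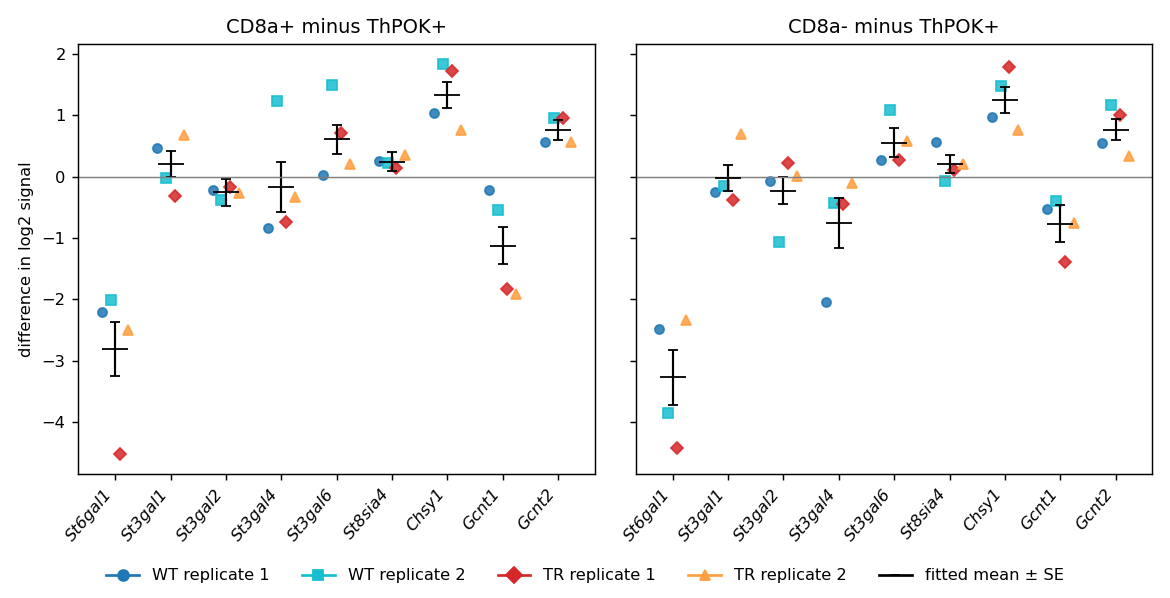
Difference in log2 signal (vertical axis) of CD8a+ (left) and CD8a- (right) from ThPOK+ cells within each of the 4 sets (coloured points) for the 9 genes, with the fitted mean and its SE in black. St6gal1 points lie between -4.52 and -2.02, Chsy1 and Gcnt2 points are all above 0, Gcnt1 points are all below 0, and St3gal1 and St3gal4 points fall on both sides of 0 in CD8a+ cells.

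Other genes of chondroitin and dermatan sulphate synthesis were on both sides of 0, and none was called. Of 22 genes, 15 passed the filter, Chsy1 among them. In CD8a+ against ThPOK+ cells the median was 0.23, with 9 positive and 6 negative, and in CD8a- cells it was 0.07, with 8 and 7 and 0 called. Chst11, a sulphotransferase of chondroitin, was higher by 0.96 (SE 0.19) in CD8a+ and 1.09 (SE 0.19) in CD8a- cells, with limma adjusted p of 0.072 and 0.084. Chst15, which adds a second sulphate to chondroitin units, was lower by a difference of -1.63 (SE 0.31) and -1.18 (SE 0.31), with adjusted p of 0.062 and 0.279. B3galt6, which builds the linker shared with heparan sulphate, differed by 0.49 and -0.87 (adjusted p = 0.413 and 0.153). Chpf, a partner of Chsy1 in chain building, differed by -0.58 and -0.48 (adjusted p = 0.45 and 0.602), opposite in sign to Chsy1.

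**Figure D5:**
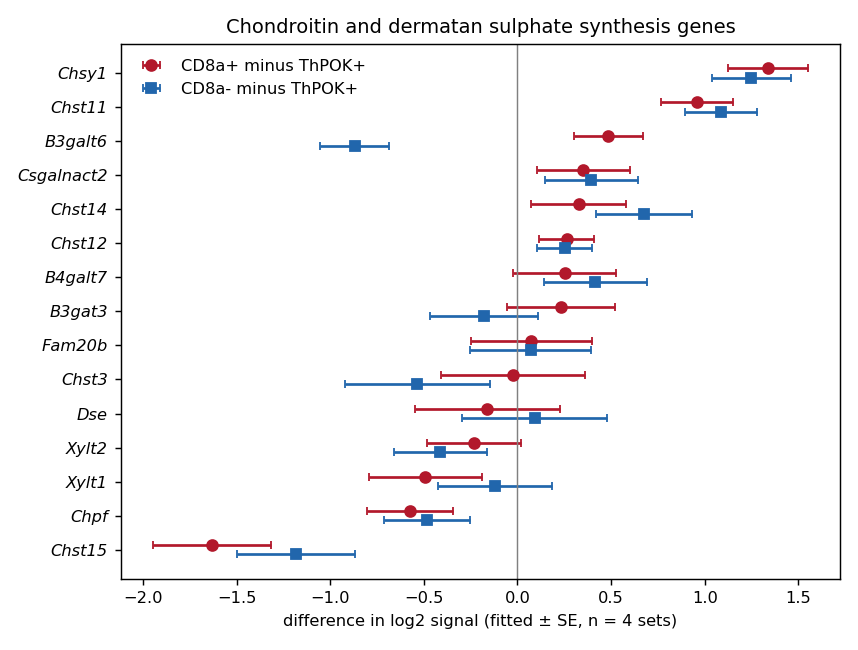
Fitted difference in log2 signal (horizontal axis) of the 15 chondroitin and dermatan sulphate synthesis genes that passed the filter, for CD8a+ minus ThPOK+ (circles) and CD8a- minus ThPOK+ cells (squares), with SE bars over 4 sets. Chsy1 at 1.34 and 1.25 and Chst11 at 0.96 and 1.09 lie highest, and Chst15 at -1.63 and -1.18 lies lowest. Chst15 was not detected on any CD8a+ array.

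The branching enzymes Gcnt2 and Gcnt1 differed from ThPOK+ cells in opposite directions. Gcnt2 read 10.99, 10.45, 10.75 and 10.87 in ThPOK+, 11.54, 11.63, 11.76 and 11.20 in CD8a- and 11.55, 11.41, 11.71 and 11.44 in CD8a+ cells. All 8 arrays of the ThPOK- subsets lay above all 4 ThPOK+ arrays. The differences were 0.76 (SE 0.17) in CD8a+ and 0.77 (SE 0.17, 95% interval 0.38 to 1.15) in CD8a- cells, the latter with a limma adjusted p of 0.167, not past the threshold. The lowest Gcnt2 signals were on the same 2 arrays as for Chsy1, and with the naive list as a covariate the differences were 0.50 and 0.56 (adjusted p = 0.866 for the latter). A second well-detected probe, detected on 12 arrays, differed by 0.94 and 1.49. A probe detected on 5 arrays ran the other way at -0.49 and -0.05, and the last was detected on 0.

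Gcnt1 read 6.999, 8.43, 8.58 and 7.62 in ThPOK+, 6.47, 8.04, 7.19 and 6.86 in CD8a- and 6.78, 7.88, 6.75 and 5.71 in CD8a+ cells. It was lower than in ThPOK+ cells in 4 of 4 sets of both comparisons, but the subsets overlapped because the sets differ in level. The value of 5.71, on the TR CD8a+ array of replicate 2, was the only one without detection. Its set had the largest CD8a+ difference, at -1.91. The differences were -1.13 (SE 0.30) in CD8a+ and -0.77 (SE 0.30, 95% interval -1.44 to -0.10) in CD8a- cells, the latter with a limma adjusted p of 0.514. A second probe, detected on 6 arrays, differed by -0.17 and -0.40, and the other was detected on 0. Of 22 genes of mucin-type O-glycan synthesis, 15 passed, both branching enzymes among them, and 0 were called. In CD8a+ cells 13 of the 15 were negative, with a median of -0.29 against 0.003 for all genes. In CD8a- cells 8 were negative and 7 positive, with a median of -0.13. C1galt1c1, the chaperone of the core 1 enzyme, differed by -0.74 in CD8a+ (SE 0.20, adjusted p = 0.177) and -0.47 in CD8a- cells (adjusted p = 0.54). Galnt2, which starts O-glycans, differed by -1.05 in CD8a+ (SE 0.34, adjusted p = 0.308) and by 0.008 in CD8a- cells (adjusted p = 0.998).

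Array by array, 3 of the 9 members had no overlap between CD8a+ and ThPOK+ cells, where 3.05% of all genes had none. St6gal1 was lower, as were 1.48% of all genes, and Chsy1 and Gcnt2 were higher, as were 1.57%. Nothing is read from this count, since the contrast served to choose members. Between CD8a- and ThPOK+ cells 2 of the 9, St6gal1 and Gcnt2, had no overlap, against 2.68% of all genes, 1.3% lower and 1.38% higher. Of the 9 members 0 were called there, where 0.0565% of genes were, 0.0283% in each direction. Between the 2 ThPOK- subsets 0 of the 9 had no overlap, against 1.33% of genes, 0.697% higher and 0.631% lower. In that comparison limma called 0 members and 0 genes (0%), with 541 genes at an unadjusted p under 0.05. All 3 comparisons share arrays in pairs.

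Over the 12 arrays, after subtracting each set's mean, Pearson's r of St6gal1 was -0.957 with Gcnt2, -0.915 with Chsy1 and 0.798 with Gcnt1. It was 0.503 with St3gal4, 0.53 with St3gal2, -0.657 with St3gal6, -0.498 with St8sia4 and 0.0359 with St3gal1. Chsy1 and Gcnt2 had an r of 0.963. These values describe the same 12 arrays and include the difference between the subsets, so they carry no p. By the same measure the genes most like St6gal1 were Lao1 (0.981), Cyp2d22 (0.962), Naglu (0.961), Cyp4f16 (0.955) and Rpl29 (0.953). Those like Chsy1 included Itgae (0.989), Ncf1 (0.987), Prkacb (0.986) and LOC100047167 (0.984). Itgae encodes CD103, the integrin chain that holds T cells in the gut epithelium, and it was higher by 1.17 in CD8a+ and 1.14 in CD8a- cells.

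The host comparison played no part in choosing the members, but it rests on the host names of replicate 1. As named in the intensity table, TR against WT over the 3 subsets gave 0 calls among 10612 genes by limma (0%), with 1022 at an unadjusted p under 0.05, and so 0 of 9 members. With the hosts of replicate 1 exchanged 8 genes were called, none of them a member, and 958 were under 0.05 unadjusted. St6gal1 had a WT range of 5.12 to 8.97 with a median of 6.19 and a TR range of 4.95 to 9.61 with a median of 5.15. Its difference was -0.30 (SE 0.44, 95% interval -1.30 to 0.70, adjusted p = 0.848), with opposite signs within the replicates, 0.56 and -1.17. With hosts of replicate 1 exchanged it was -0.87 (SE 0.31, adjusted p = 0.476).

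St3gal4 differed most between hosts as named. WT arrays ran from 7.66 to 9.97 with a median of 8.80, TR arrays from 6.80 to 7.88 with a median of 7.54, and 5 of 6 WT arrays lay above all TR arrays. The difference was -1.44 (SE 0.26, 95% interval -2.03 to -0.84), and limma's adjusted p of 0.176 missed the threshold. It was -1.60 within replicate 1 and -1.27 within replicate 2. Exchanging the hosts of replicate 1 gave 0.16 (SE 0.60, adjusted p = 0.952). With the Paneth and goblet list as a covariate, added after seeing the data, the difference was -0.50 (adjusted p = 0.815). All 11 of those genes that passed were lower in TR than in WT arrays, with a median difference of -2.33, and 0 of them were called.

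St3gal6 was higher in TR cells by 0.77 (SE 0.25, 95% interval 0.18 to 1.35), with 0.34 and 1.19 within the replicates, an adjusted p of 0.421 by limma and a value of 0.42 (adjusted p = 0.715) with hosts exchanged. Chsy1 differed by 0.50 (adjusted p = 0.64) with -0.23 and 1.24 within the replicates, and by 0.74 (adjusted p = 0.344) with hosts exchanged. Gcnt1 differed by -0.31 (adjusted p = 0.825) with 0.76 and -1.38, and by -1.07 (adjusted p = 0.284) with hosts exchanged. The remaining members, St3gal1, St3gal2, St8sia4 and Gcnt2, differed by -0.36 to 0.27, with adjusted p of 0.541 or more by limma. With hosts exchanged the values were 0.11 for St3gal1, -0.16 for St3gal2, -0.35 for St8sia4 and -0.02 for Gcnt2, with adjusted p of 0.566 or more. St6gal1, St3gal1, St8sia4, Chsy1 and Gcnt1 had host differences of opposite sign in the 2 replicates.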

How the data were processed

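Total RNA of 12 sorted samples was measured on Illumina MouseRef-8 arrays. Per the file headers, the authors exported mean bead intensity per probe from GenomeStudio 1.0.6 without normalization. The deposited table also holds a detection score, taken here to be 1 minus the p-value of detection because it is higher for brighter probes, and another column, the number of beads. A deposited table of log2 values came without stated scale or centring. Its values had a median of 0 over the 3 arrays of each set in 100% of its rows, and its column medians were 0. Its direction was that of the intensities. Its row names could not be tied to probes, so it served for the host check and counts only.

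Background correction and normalization used limma 3.58.1 under R 4.3.3, by neqc with an offset of 16, which ends in quantile-normalized log2 signals. Detection on at least 2 arrays left 14635 of 25697 probes. The brightest probe stood for each of 10612 genes. Symbols were matched to the RefSeq table of GRCm38.p6, where 20736 probes carried a current and 3841 an older symbol, and 1120 kept the file's name. Limma with the 4 sets as a block compared subsets (6 residual degrees of freedom), and limma with replicate number as a block compared hosts (5), two-sided, with Benjamini-Hochberg adjustment over all genes. Replicate numbers were taken as pairing samples from the data, since deviations correlated at 0.356 to 0.657 in all 15 pairs of groups. No label ties them to an animal or a day. The number of arrays limits precision. For a bound, each undetected array of the dimmer subset was set to its lowest detected probe signal, or to the probe itself where that was brighter. The fits were also run on simulated data. The simulation for hosts held no set or replicate effects, and nothing is read from these runs. Members, gene lists and tests were chosen with earlier results of these data known. Named genes are the members with all probes, called list genes or the list genes with the smallest p, and the 5 genes most like St6gal1 and Chsy1. Some genes that these rules name are not reported here. The other genes named of the lists that hold St6gal1 and Chsy1 were picked after their values were seen. Alternatives changed background, normalization, filter, probe choice, block, variance model and arrays. RefSeq windows come from the same build.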

Additional observations from a re-analysis of the deposited data

Results flagged for a closer look

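The St3gal6 level on the WT ThPOK+ array of replicate 2 was 5.945, far from the other 3 ThPOK+ arrays, which read 7.50 to 7.73. The Chsy1 level on the TR CD8a+ array of replicate 2 was 8.91, while the other 3 CD8a+ arrays read 8.16 to 8.27. Chance marks about 1 in 20 groups of 4 arrays in this way. Leaving out the first of these arrays is among the alternatives, and St3gal6 kept a positive difference in both comparisons with ThPOK+ cells, at 0.33 or more in CD8a+ and 0.30 or more in CD8a- cells over all alternatives.

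The St3gal2 difference between CD8a- and ThPOK+ cells had opposite signs in the hosts as named, -0.07 and -1.07 in the WT sets and 0.23 and 0.0018 in the TR sets. TR minus WT was 0.688 (SE 0.42), and limma's test of that difference gave an adjusted p of 1. With the hosts of replicate 1 exchanged the signs were no longer opposite.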

How the results depend on the processing

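St6gal1, Chsy1, Gcnt1 and Gcnt2 kept their sign against ThPOK+ cells under every alternative run. St6gal1 ran from -3.18 to -1.66 in CD8a+ and from -3.54 to -1.88 in CD8a- cells, and the smallest sizes came without background correction. The sign of St3gal4 turned in 3 alternatives in CD8a+ cells, and in CD8a- cells St3gal1 turned in 7, St3gal2 in 1 and St3gal4 in 1. In CD8a- cells St6gal1 passed the limma threshold in 6 of 24 alternatives and missed it in the rest, with adjusted p up to 0.476. The 6 were normexp (adjusted p = 0.0289), no background correction (0.0222), median scaling (0.0456), detection on 4 arrays (0.0455), a trended robust variance (0.00535) and leaving out the WT CD8a+ array of replicate 2 (0.0316). The comparison reuses the ThPOK+ arrays that served to choose the gene, so these values are no separate test.

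For CD8a+ against ThPOK+ cells, 60 genes were called. The count was 118 with normexp, 135 without background correction, 149 with a trended robust variance and 146 on the deposited log2 values. It was 0 with only the arrays compared, 0 with the naive list and 96 with the Paneth and goblet list as a covariate, both added after seeing the data. With replicate number alone as a block it was 12, and with no replicate block 4. Leaving out 1 array gave 2 to 78, with 2 without TR ThPOK+ replicate 1 and 5 without TR CD8a+ replicate 1. The 60 genes were 0.565% of all genes and held 2 of the 9 members, St6gal1 and Chsy1. Nothing is read from this, since the contrast served to choose members. The count held 0 members with no filter, replicate number alone, no replicate block, only the arrays compared, the naive list and 8 of the 12 arrays left out in turn. For CD8a- against ThPOK+ cells, 6 were called. The count was 30 with normexp, 40 without background correction, 31 with median scaling, 57 with the trended robust variance and 67 on the deposited values. It was 0 with only the arrays compared, 0 and 3 with the naive and the Paneth lists, and 1 each with replicate number alone and with no replicate block. Leaving out 1 array gave 0 to 14. For the ThPOK- subsets the count was 0 throughout. For hosts it was 0, and 2 with median scaling, 5 with the trended robust variance, 8 with hosts of replicate 1 exchanged and 0 to 33 leaving out 1 array (33 without WT CD8a+ replicate 1, 15 without WT ThPOK+ replicate 2). Without the latter array St3gal4 passed the threshold between hosts, at -1.71 (adjusted p = 0.0287). The causes were not tested. Low signal over background limits St6gal1 in both ThPOK- subsets, St3gal2 in all subsets and several sialyltransferases outside the members. St3gal6, Chsy1 and Gcnt1 were each detected on 11 of 12 arrays.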

Other observations

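Of 16 genes that build or trim heparan sulphate, 9 passed the filter and 0 were called, with 8 of 9 negative in both comparisons and medians of -0.33 in CD8a+ and -0.20 in CD8a- cells, against medians near 0 for all genes. The comparisons share the ThPOK+ arrays, and Glce and Hs3st3b1 were detected on 2 arrays and Hs2st1 on 4. Hs3st3b1, a sulphotransferase of heparan sulphate, differed by -0.47 and -0.45 (SE 0.17, limma adjusted p = 0.392 and 0.514). Among proteoglycan cores and sialylated carriers, 13 of 18 passed and 0 were called. Sdc4, a heparan sulphate proteoglycan, differed by -1.05 (SE 0.22, adjusted p = 0.079) in CD8a+ and -1.47 (SE 0.22, adjusted p = 0.058) in CD8a- cells. Sdc4 was detected on only 4 arrays, and its signals in ThPOK+ cells were 6.68 to 6.91. In CD8a- cells they were 5.24 to 5.58, below the lowest detected signal of each CD8a- array. The size and p of that difference thus rest on undetected values. Cd44, the hyaluronan receptor, differed by -0.81 (SE 0.19, adjusted p = 0.124) in CD8a+ cells.

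Of 15 lectins that bind sialic acid or galactose, 10 passed and 0 were called. Lgals1 encodes galectin-1, whose binding is masked by alpha-2,6 sialic acid, and it differed by -0.54 (SE 0.19, limma adjusted p = 0.35) in CD8a+ cells. Lgals3, another galectin, differed by 0.89 (SE 0.33, adjusted p = 0.407). Of 6 genes for sialidases and sialic acid O-acetylation, 4 passed and 0 were called, and Neu4, a sialidase, differed by -0.40 (SE 0.13, adjusted p = 0.334) in CD8a+ cells.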
